A study of Mus musculus with 6 samples.

Results

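The 10 genes described here encode enzymes that attach coenzyme A to fatty acids or acetate (Acsl1, Acsl3, Acsl4, Acsl5 and Acss2) and enzymes that build triglyceride from the activated fatty acids (Gpam, Agpat2, Lpin1, Dgat1 and Dgat2). They were taken by exact symbol from a table of 21448 genes, and all 10 were found and passed the filter on low values, a mean of at least 1 over the 6 libraries. Acsl3 was the single member that passed a limma test, in an alternative fit that takes the replicate number into account. Its mean was 30.4% lower in the libraries labelled PRDM15 knockout. The planned fit, without the replicate number, called none of the 10 (limma adjusted p = 0.9998 for Acsl3). The remaining 9 did not pass, among them Acsl5, the most abundant of the 10, with means of 378 and 386 CPM (reads divided by the library's effective size in megareads). Outside the 10 genes, Gpat3, an acyltransferase for the same first step of glycerolipid synthesis as Gpam, also passed in the alternative limma fit only. Its labelled knockout mean was 1.43 times its wild type mean.

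RNA-seq was done on B cells of primary lymphomas from the E mu-Myc strain, whose transgene places Myc under an immunoglobulin heavy chain enhancer and leads to B cell tumours. There were 3 wild type libraries and 3 libraries of genotype PRDM15 KO. All cells carried the transgene and grew in culture medium with IL7. Per the labels' protocols, deletion of Prdm15 was induced with 50 nM OHT over 24 hours, control cells received ethanol, and cells were collected 3 days later, so OHT exposure and deletion cannot be told apart. The labels do not give the age or sex of the mice, how many tumours were used, which Cre line was carried or whether equal numbers mark the same tumour.

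Free fatty acids are inert until an acyl-CoA synthetase converts them to acyl-CoA, and the synthetases of the ACSL family differ in location and in the fatty acids they prefer. ACSL3 resides on the endoplasmic reticulum and on nascent lipid droplets, ACSL4 prefers arachidonic acid and other polyunsaturated fatty acids and is known for its part in ferroptosis, and ACSL1 and ACSL5 are widely expressed forms. In the glycerol phosphate pathway, a GPAT adds the first acyl chain to glycerol-3-phosphate, an AGPAT the next one, a lipin removes the phosphate to give diacylglycerol, and a DGAT adds the last chain to make triglyceride. Proliferating B cells use the same early steps to make membrane phospholipids.

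The libraries held 28852951 to 47255421 recovered reads. Values below are CPM, and mean ± SD is over n = 3 libraries of a group. Prdm15 itself was at 29.2, 47.3 and 41.3 in the wild type libraries and at 40.2, 40.9 and 39.2 in the labelled knockout, a log2 change of 0.06 (two-sided exact permutation test, p = 1, where 0.1 is the lowest p that could arise). Reads summed over a gene cannot reveal the loss of an exon and leave the labels unchecked, and every direction given here rests on them. Libraries of equal replicate number varied together (correlations of 0.73, 0.73 and 0.84), so each result comes from a fit without the replicate number (unpaired) and from one with it (paired). B cell markers were present in each library, with 12 markers summing to 1760 to 2486 in wild type and 1797 to 2420 in the labelled knockout, although Ms4a1 was at 6.04 or lower in each library. Myeloid markers were uneven: the sum of 15 was 59.3, 206.5 and 161.9 in wild type (replicates 1 to 3) against 36.8, 2169 and 1170.1 in the labelled knockout.

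Promoter windows of 3 long-chain synthetases are shown. They set Acsl3, which passed limma in the paired fit only, beside its closest relative, Acsl4, and the most abundant member, Acsl5. Each runs from 250 bases before to 50 bases after the annotated start, in the gene's own direction, from RefSeq on GRCm38.p6, a later build than the mm9 named for the deposited values. The table held windows for 8 of the 10 genes, all but Dgat1 and Dgat2. The Acsl3 window is at chr1:78657575-78657874 on the plus strand, the Acsl4 window at chrX:142390486-142390785 on the minus strand and the Acsl5 window at chr19:55253119-55253418 on the plus strand. Capitals mark matches, on either strand, to the CCAAT box (CCAAT), the GC box (GGGCGG) and the core of the hypoxia response element (ACGTG or GCGTG); the E-box CACGTG, which contains ACGTG, and the sterol response element TCACNCCAC were also searched.

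Acsl3: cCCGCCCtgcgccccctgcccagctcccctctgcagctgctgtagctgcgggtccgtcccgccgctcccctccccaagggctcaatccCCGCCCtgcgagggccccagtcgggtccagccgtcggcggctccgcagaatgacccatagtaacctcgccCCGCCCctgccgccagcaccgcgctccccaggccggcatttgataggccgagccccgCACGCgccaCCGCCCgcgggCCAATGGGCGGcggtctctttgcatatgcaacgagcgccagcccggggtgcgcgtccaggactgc
Acsl4: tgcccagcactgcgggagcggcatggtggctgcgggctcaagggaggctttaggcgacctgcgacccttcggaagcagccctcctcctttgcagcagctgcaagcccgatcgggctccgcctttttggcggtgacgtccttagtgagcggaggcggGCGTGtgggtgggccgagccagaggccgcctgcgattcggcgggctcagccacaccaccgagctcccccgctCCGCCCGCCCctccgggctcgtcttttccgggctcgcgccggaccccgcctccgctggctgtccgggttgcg
Acsl5: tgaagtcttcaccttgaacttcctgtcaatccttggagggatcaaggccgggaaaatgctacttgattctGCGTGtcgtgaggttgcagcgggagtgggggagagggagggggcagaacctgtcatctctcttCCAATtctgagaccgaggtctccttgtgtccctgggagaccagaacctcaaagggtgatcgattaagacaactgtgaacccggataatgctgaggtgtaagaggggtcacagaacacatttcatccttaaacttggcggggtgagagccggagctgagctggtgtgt

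In the Acsl3 window a CCAAT box begins 15 bases before the start and is followed directly by a GC box that begins 10 bases before it, and 4 more GC boxes and 1 GCGTG, all on the opposite strand, lie upstream. The Acsl4 window has 2 overlapping GC boxes and 1 GCGTG but no CCAAT box, and the Acsl5 window has 1 CCAAT box and 1 GCGTG but no GC box. Of the 32851 windows in the table, 37.4% hold CCAAT, 35.7% GGGCGG and 32.4% GCGTG, so each of these matches is common. CACGTG was in 7.15% of all windows, ACGTG in 19.6% and TCACNCCAC in 1.24%, and none of the 3 was found in the windows of Acsl3, Acsl4 and Acsl5. These matches describe letters in a window and were not tested for binding.

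Levels can be compared between genes only after dividing by length, for which the union of all annotated exons (GENCODE M21) was used. In wild type, Acsl5 had the highest length-scaled level, 77.8 ± 4.11 CPM per kb. Gpam (23.6 ± 1.74) and Acsl3 (23.6 ± 4.13) came next and did not differ beyond their spread. Acsl4 (16.3 ± 1.21) and Acsl1 (10.8 ± 1.68) followed, each without overlap with its neighbours in this order. Agpat2 (4.51 ± 1.58) and Dgat1 (3.90 ± 1.10) overlapped each other. Acss2 (0.419 ± 0.155), Lpin1 (0.381 ± 0.153) and Dgat2 (0.330 ± 0.0449) formed the lowest group and overlapped one another. In the labelled knockout, Acsl3 was at 16.4 ± 2.77 per kb, a range that lay below that of Gpam (27.8 ± 6.55) and overlapped that of Acsl4 (15.9 ± 1.48). The exon union of Acss2 is 10163 bases and that of Lpin1 9665 bases, and transcripts that use only part of these exons would have a higher level per kb than given here.

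**Figure D1:**
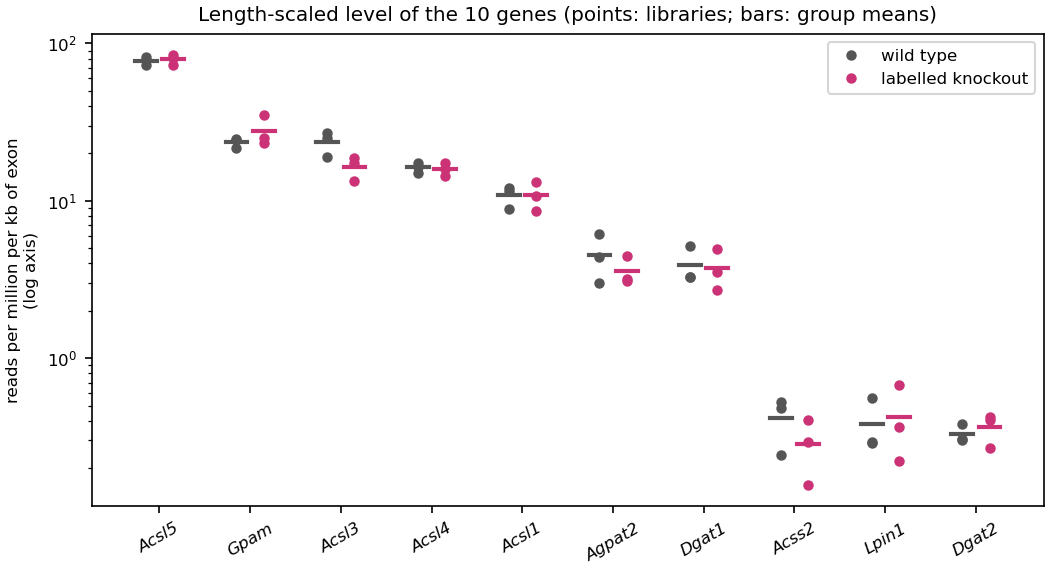
Length-scaled level of each of the 10 genes (CPM per kb of exon, log vertical axis), with 1 point per library and a bar for the group mean, wild type in grey and labelled knockout in pink. Acsl5 stands highest in both groups, and Acsl3 lies level with Gpam in wild type and with Acsl4 in the labelled knockout.

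Among the long-chain synthetases, Acsl3 was lower in CPM in each labelled knockout library than in any wild type library, by a narrow gap. It was at 82.6, 117.0 and 108.9 in wild type (replicates 1 to 3) and at 57.9, 75.7 and 80.9 in the labelled knockout. On this scale the groups did not overlap, which was so, in the lower direction, for 6.29% of the 10533 tested genes. The nearest values were those of wild type replicate 1 (3091 of 38581112 recovered reads) and labelled knockout replicate 3 (3414 of 41204788). Divided by these plain totals they change order, so the groups overlap on that scale. The mean went from 102.8 ± 18.0 to 71.5 ± 12.1, and the change on the log2(value + 1) scale was -0.50, -0.62 and -0.42 in pairs 1, 2 and 3. In the paired fit the log2 change was -0.52 (SE 0.060, limma adjusted p = 0.0429, 95% interval -0.67 to -0.36). In the unpaired fit the same change did not pass (SE 0.18, limma adjusted p = 0.9998).

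The call on Acsl3 lies close to the threshold. Of the count tests with the pairs, edgeR did not call it (adjusted p = 0.0677) and DESeq2 did (5.05e-06). Within the paired limma fit, the adjusted p was 0.00779 without pair 1, and the call was lost without pair 2 (0.232) or pair 3 (0.193), with log2 changes of -0.52, -0.46 and -0.56. In pair 1, where the summed myeloid markers were lower in the labelled knockout and 4 of 15 were higher, the log2 change of Acsl3 was -0.50; the part of myeloid transcripts was not tested. The retrogene Utp14b lies within Acsl3 on the same strand and shares 5.60% of its exon length. It was at 44.4, 80.6 and 66.4 in wild type and at 47.9, 52.0 and 57.9 in the labelled knockout. Unlike Acsl3 it was higher in pair 1, and like Acsl3 it was lower in pairs 2 and 3. The part of shared reads in the Acsl3 values was not tested. In bulk RNA, fewer cells of a kind and less RNA per cell cannot be told apart.

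Acsl4, which belongs to the same subfamily as Acsl3, did not move with it. It was at 81.5, 88.5 and 94.5 in wild type and at 85.6, 78.1 and 94.1 in the labelled knockout, overlapping ranges (log2 change -0.04, 95% interval -0.21 to 0.13, paired limma adjusted p = 0.771). The log2 ratio of Acsl3 to Acsl4 reads was 0.02, 0.40 and 0.20 in wild type and -0.56, -0.04 and -0.22 in the labelled knockout, lower by 0.58, 0.45 and 0.42 in the 3 pairs. The groups did not overlap in this ratio, and its exact two-sided permutation p was 0.1, the smallest that 3 against 3 allows. This ratio was chosen after the values of both genes were seen.

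Acsl5 had the lowest coefficient of variation of the 10 genes in both groups, 5.29% and 7.20%. Its 6 values lay between 355 and 409, with means of 378 ± 20.0 in wild type and 386 ± 27.8 in the labelled knockout (log2 change 0.03, 95% interval -0.10 to 0.15). The exons of Acsl5 share 8.31% of their length with Zdhhc6 on the opposite strand, and whether the counting used strand is not given in the sources used here. Acsl1, a form best known from liver, fat and macrophages, had equal means, 113.6 ± 17.6 and 113.6 ± 23.9. Its single values were 93.6, 120.6 and 126.7 in wild type and 90.0, 137.9 and 113.1 in the labelled knockout, so it was higher in pair 2 and lower in pairs 1 and 3, and the sign of its mean change depends on the scaling. Neither gene passed, with paired limma adjusted p of 0.779 and 0.96.

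The shares of the 4 long-chain forms describe the same values on a common scale. Of the summed length-scaled level, Acsl3 made up 16.3, 20.1 and 18.4% in wild type and 12.0, 13.8 and 14.2% in the labelled knockout. Acsl5 made up 63.1, 59.0 and 59.9% in wild type and 65.9, 64.3 and 64.3% in the labelled knockout. The summed level was 128.5 ± 10.7 and 122.5 ± 10.5 per kb, which overlapped. The share of Acsl1 was 8.40 ± 0.638% and 8.81 ± 1.44%, and that of Acsl4 12.7 ± 0.376% and 13.03 ± 1.43%. Since the shares add up to a fixed total, a lower share of one form means a higher sum of the others.

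**Figure D2:**
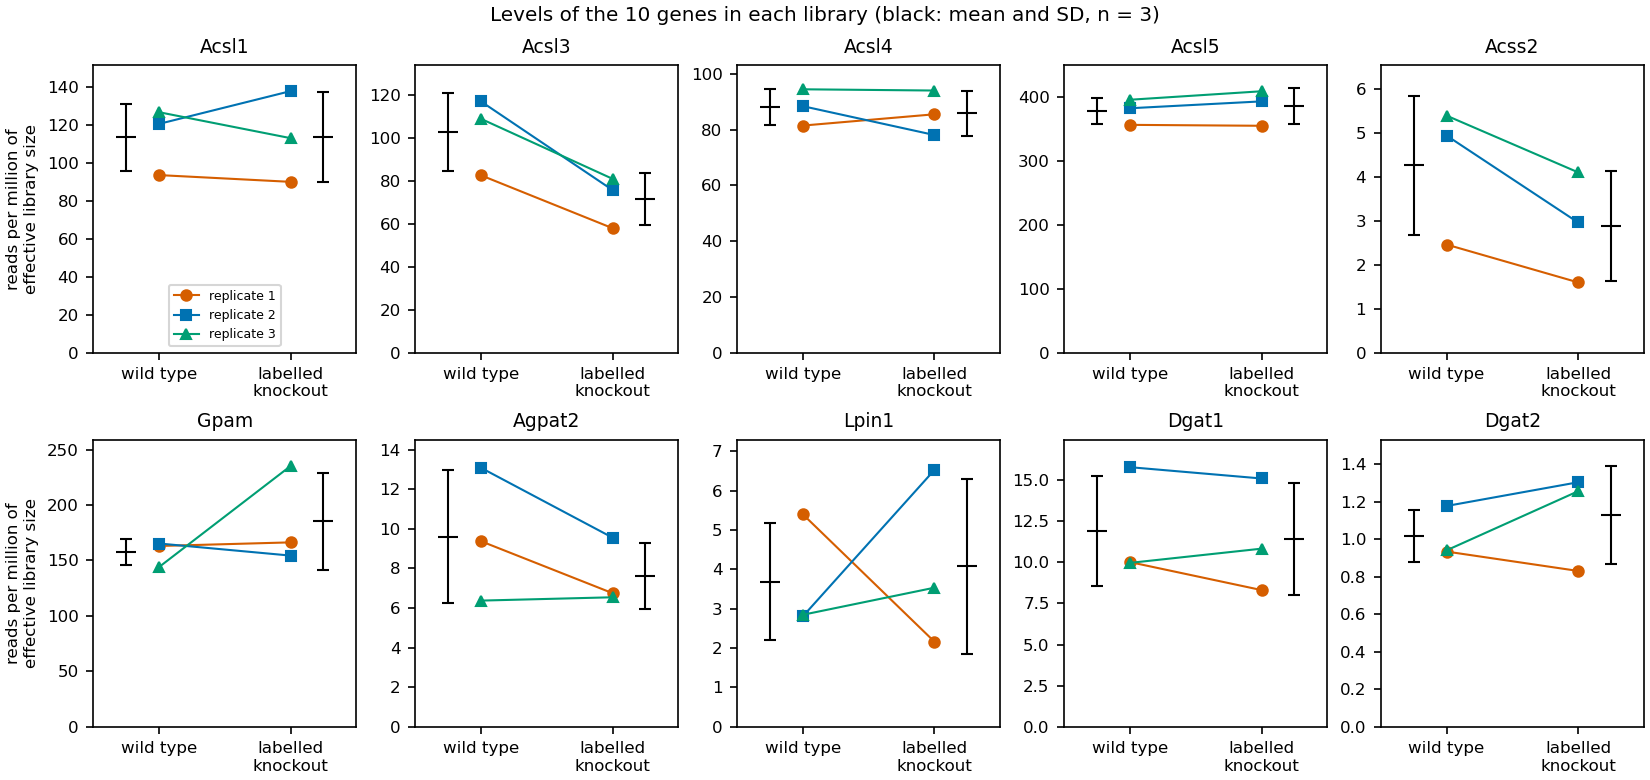
Level of each of the 10 genes (vertical axes from 0, CPM) in the wild type and labelled knockout libraries, with lines joining equal replicate numbers and black marks for mean and SD (n = 3). The lines of Acsl3 and Acss2 slope down in all 3 pairs, while only for Acsl3 do the groups not overlap on this scale, by a narrow gap.

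Acss2, the cytosolic and nuclear enzyme that makes acetyl-CoA from acetate, was lower in each pair without passing. It was at 2.46, 4.94 and 5.39 in wild type and at 1.597, 2.96 and 4.10 in the labelled knockout. The pairs were ordered alike, with replicate 1 lowest and replicate 3 highest in both groups, and the ranges of the groups overlapped. Its log2 change was -0.44 (SE 0.14, paired limma adjusted p = 0.179), on a scale that understates changes of genes this low. The values rest on 48 to 252 reads per library, for which counting alone gives an SD of 6.30 to 14.4%.

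Gpam, the mitochondrial glycerol-3-phosphate acyltransferase and the most abundant of the triglyceride synthesis members, stood apart in 1 library. It was at 163.1, 165.3 and 144.1 in wild type and at 166.3, 154.4 and 235.2 in the labelled knockout. The first 2 pairs changed by 0.03 and -0.10 on the log2 scale and the third by 0.70, so the mean change of 0.21 (95% interval -0.20 to 0.62, paired limma adjusted p = 0.486) was carried by labelled knockout replicate 3. Without that pair the change was -0.03.

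Agpat2, which adds the acyl chain that turns lysophosphatidic acid into phosphatidic acid, was at 9.38, 13.1 and 6.38 in wild type and at 6.75, 9.56 and 6.54 in the labelled knockout. It was lower by 0.42 in pairs 1 and 2 and higher by 0.03 in pair 3 on the log2 scale (mean change -0.27, 95% interval -0.60 to 0.07, paired limma adjusted p = 0.310). The ranges overlapped.

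Lpin1, a phosphatidate phosphatase that also acts as a transcriptional coregulator, was the most scattered member. It was at 5.40, 2.81 and 2.85 in wild type and at 2.16, 6.52 and 3.53 in the labelled knockout. Its change was -1.02 in pair 1 and 0.98 and 0.24 in pairs 2 and 3, with a mean of 0.07 (95% interval -0.91 to 1.043, paired limma adjusted p = 0.936). These signs are those of the summed myeloid markers in the same pairs, and the part of myeloid transcripts in the Lpin1 values was not tested.

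The 2 enzymes of the last step differ in level and neither passed. Dgat1, the form of the endoplasmic reticulum with broad substrate use, was at 10.0, 15.8 and 9.97 in wild type and at 8.32, 15.1 and 10.8 in the labelled knockout (log2 change -0.06, 95% interval -0.33 to 0.20, paired limma adjusted p = 0.754). In both groups replicate 2 was the highest. Dgat2, the form linked to newly made fatty acids and lipid droplets, was at 0.935, 1.18 and 0.941 in wild type and at 0.832, 1.30 and 1.26 in the labelled knockout (log2 change 0.07, 95% interval -0.40 to 0.55, paired limma adjusted p = 0.848). Dgat2 had 25 to 53 reads per library, so counting alone gives an SD of 13.7 to 20.0% in a single library. This is not a limit of detection: the interval of -0.40 to 0.55 is wider, so larger changes could also be missed.

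Over the 10 genes, the unpaired limma fit called 0, against 1 of 10533 tested genes (0.00949%). At an unadjusted p under 0.05 there was 1 of 10 members, Acsl3, against 428 of the 10533 tested genes in that fit. The paired limma fit called 1 member lower and none higher, against 92 genes (0.873%) in all, of which 78 were lower (0.741%). With the pairs, edgeR called none of the 10 against 0.370% of tested genes, and DESeq2 called 1 against 7.01%. At an unadjusted p under 0.05, paired limma held 2 of 10 members against 2213 of the 10533 tested genes. With the pairs this was 2 against 2174 by edgeR and 1 against 1926 by DESeq2. Lower in all 3 pairs were 2 of 10 members, Acsl3 and Acss2, against 29.9% of tested genes, and higher in all 3 pairs were 0 of 10, against 16.7%. The median log2 change of the 10 was -0.02, against -0.03 over all tested genes. With 10 genes, these counts by pair cannot be set apart from the background shares and are no result about the members. The single call rests on Acsl3.

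**Figure D3:**
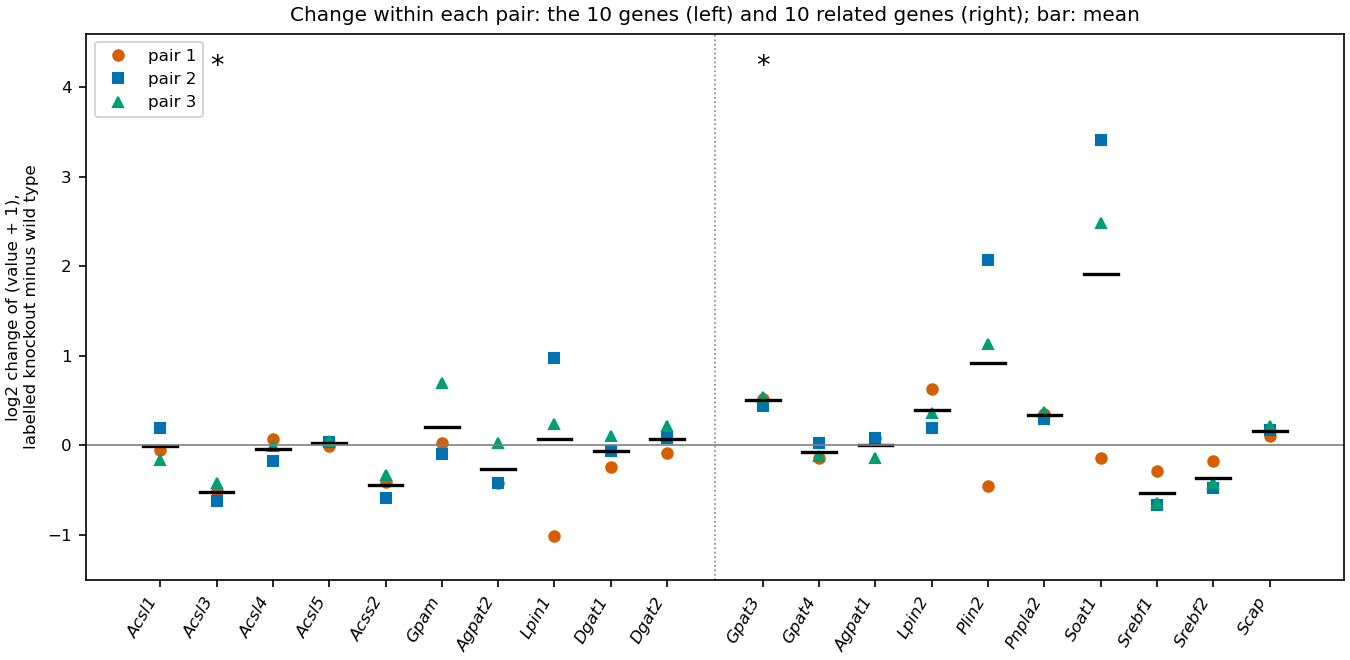
Vertical axis: difference in log2(value + 1) between the labelled knockout and wild type libraries of pairs 1, 2 and 3 for the 10 genes (left) and 10 related genes (right), with a bar for the mean and an asterisk where the paired limma adjusted p was under 0.05. Acsl3 and Gpat3 carry the asterisks with pairs close together, while Lpin1, Plin2 and Soat1 lie below 0 in pair 1 and above 0 in pairs 2 and 3.

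Of 64 other genes of fatty acid activation, glycerolipid synthesis, lipid droplets and their regulation, 41 were tested, and 1 was called in the paired limma fit, Gpat3, where 0.873% of all tested genes were called. DESeq2 with the pairs called 7 of the 41, against 7.01% of all tested genes, namely Gpat3, Lpin2, Pnpla2, Mgll and Rxra higher and Srebf1 and Srebf2 lower, and edgeR with the pairs called none. Gpat3 makes lysophosphatidic acid at the endoplasmic reticulum. It was at 46.5, 40.6 and 55.8 in wild type and at 67.3, 55.5 and 81.7 in the labelled knockout, higher by 0.52, 0.44 and 0.54 in the 3 pairs on the log2 scale. The ranges of the groups overlapped through wild type replicate 3 and labelled knockout replicate 2, which differed by little. The log2 change was 0.50 (SE 0.055, paired limma adjusted p = 0.0414, unpaired 0.9998), edgeR with the pairs gave an adjusted p = 0.0516 and DESeq2 with the pairs 7.59e-07. Without pair 1 the paired limma adjusted p was 0.01004, and without pair 2 or pair 3 the call was lost (0.198 and 0.247).

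Limma called no other gene of the glycerolipid steps. Among the 13 tested genes of the glycerolipid steps, Gpd1l, a glycerol-3-phosphate dehydrogenase-like enzyme (328.6 ± 18.1 and 341.7 ± 22.7), and Cds2, which channels phosphatidic acid towards phosphatidylinositol (113.9 ± 26.0 and 125.7 ± 33.6), had the highest mean CPM over the 6 libraries, a rank that is not scaled by length. Gpat4 was at 119.6, 113.6 and 127.7 and at 108.1, 115.6 and 118.0, named outside the rule as a further GPAT. Lpin2, a further lipin chosen after its values were seen, was at 38.4, 52.3 and 56.9 in wild type and at 60.01, 59.99 and 73.4 in the labelled knockout. Its groups did not overlap, and it was called by DESeq2 with the pairs (adjusted p = 0.0206) but not by limma (paired 0.137). The median log2 change of the 13 genes was 0.01, against -0.03 over all tested genes. In all 3 pairs 5 of the 13 were higher and 2 lower, against 16.7% and 29.9% of tested genes.

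None of 7 tested genes of fatty acid activation outside the 10 was called by limma in either fit, or by edgeR or DESeq2 with the pairs. Acss1, the mitochondrial acetyl-CoA synthetase, was at 87.5 ± 22.8 and 85.7 ± 24.7, and it was lower in pair 2 only, unlike Acss2. Acsf2, a medium-chain synthetase, was at 24.6 ± 9.38 and 24.5 ± 5.77. Their paired limma adjusted p were 0.819 and 0.892.

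A few lipid storage genes were highest in labelled knockout replicates 2 and 3, the libraries with the most myeloid transcripts, while others of the list were not. Plin2, a coat protein of lipid droplets, was at 28.5, 29.8 and 39.3 in wild type and at 20.5, 128.3 and 87.7 in the labelled knockout. Soat1, which esterifies cholesterol and is named outside the rule, had 3.23, 4.84 and 5.22 and at 2.83, 61.0 and 33.7. Mgll, a monoglyceride lipase, and the nuclear receptor gene Rxra, both named outside the rule, reached 19.9 and 11.4 in labelled knockout replicate 2, against 0.998 and 0.632 in replicate 1. Hilpda, an inhibitor of the lipase ATGL, and Bscl2 (seipin), which acts in droplet formation, were chosen after their values were seen: in replicates 2 and 3 Hilpda was at 16.9 and 10.0 (wild type 15.5 and 9.46) and Bscl2 at 14.2 and 18.2 (wild type 13.3 and 17.5). The 9 tested genes of droplets and lipolysis had a median log2 change of 0.11, and limma called none of them. In labelled knockout replicates 2 and 3, all 15 myeloid markers were higher than in the matching wild type libraries, against 4 of 15 in replicate 1, and the macrophage lysozyme Lyz2 stood at 1471 and 820.3, against 10.7 in replicate 1. No myeloid marker was at 0 in a labelled knockout library; Lyz1 was at 0 in wild type replicates 1 and 3. Neither Plin2 nor Soat1 passed (paired limma adjusted p = 0.320 and 0.210). Both were called without pair 1 (0.00191 and 0.000113), in a paired limma fit that called 840 genes in all. With labelled knockout replicates 2 and 3 left out, their changes turned to -0.63 and -0.49. Pair 1 was the pair in which both were lower, and labelled knockout replicates 2 and 3 held their highest values. Both outcomes therefore follow from which libraries were left out and are no separate test of the pattern. The part of myeloid transcripts in these values was not tested.

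The lipase Pnpla2 (ATGL), which starts triglyceride breakdown, was higher in each of the 3 labelled knockout libraries than in its wild type pair. It was at 39.1, 34.7 and 28.4 in wild type and at 50.3, 43.0 and 37.1 in the labelled knockout, higher by 0.36, 0.30 and 0.37 in pairs 1, 2 and 3 on the log2 scale, with overlapping groups. It did not pass in limma (paired adjusted p = 0.0799) or edgeR (0.0775) and was called by DESeq2 with the pairs (0.00775). Of the tissues best known for these enzymes, the summed level of 5 liver markers was at most 0.374, and the adipocyte marker Adipoq was at most 0.366. Fabp4, an adipocyte marker that macrophages also express, was at 7.32, 1.55 and 0.535 in wild type and at 0.765, 34.2 and 12.4 in the labelled knockout.

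**Figure D4:**
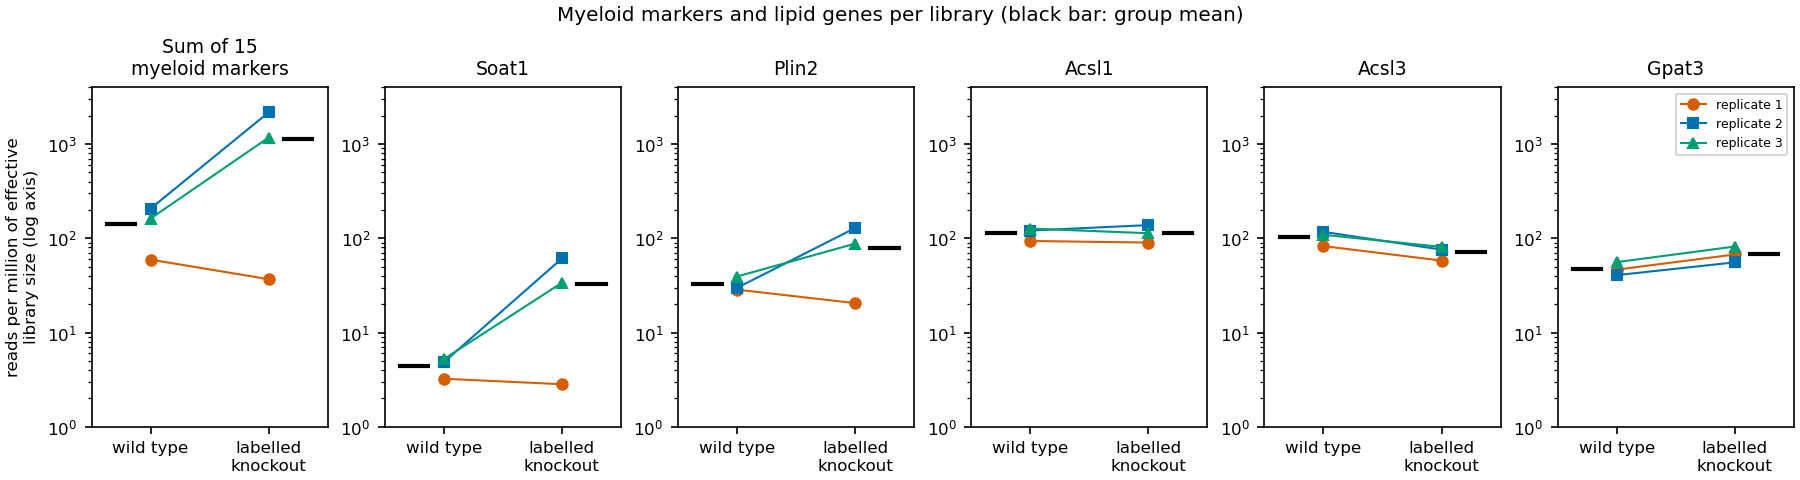
Sum of 15 myeloid markers and levels of Soat1, Plin2, Acsl1, Acsl3 and Gpat3 per library (CPM, log axes of equal range), with lines joining equal replicate numbers and a black bar for the group mean. The first 3 panels rise steeply in replicates 2 and 3 and drop in replicate 1, whereas Acsl3 goes down and Gpat3 up in each replicate.

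The regulators of lipid synthesis included 12 tested genes, of which limma called none in either fit, edgeR with the pairs none and DESeq2 with the pairs 3 (Srebf1, Srebf2 and Rxra). Srebf2, whose product drives sterol synthesis genes, was at 160.7, 164.7 and 180.4 in wild type and at 142.1, 118.0 and 134.3 in the labelled knockout, without overlap (log2 change -0.36, paired limma adjusted p = 0.115, DESeq2 with the pairs 0.0116). Srebf1, which drives fatty acid and triglyceride synthesis genes and was likewise chosen after its values were seen, had 68.6, 107.0 and 106.4 and at 56.0, 66.9 and 67.5, also without overlap (log2 change -0.54, paired limma adjusted p = 0.0808, DESeq2 with the pairs 0.000612). Both were lower in all 3 pairs, as were Acsl3 and 29.9% of tested genes, and a link to Acsl3 was not tested. Scap, the escort protein of both factors, was at 179.4 ± 34.6 and 202.0 ± 44.9 (paired limma adjusted p = 0.179). In the regulators, 6 of 12 genes were lower in all 3 pairs, against 29.9% of tested genes, and 3 were higher in all 3 pairs, against 16.7%. Their median log2 change was -0.09, against -0.03 over all tested genes.

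Among the tested genes whose levels followed Acsl3 most closely over the 6 libraries were Nusap1, a spindle protein, and Slc30a9, a zinc transporter family member, with Pearson correlations of log2(value + 1) of 0.997 and 0.994. Nusap1 was at 184.5, 245.1 and 232.8 in wild type and at 146.2, 177.4 and 189.8 in the labelled knockout. These values come from 6 libraries that share a common split by group and by replicate number, and 10533 genes were searched, so close matches are a description only. Among the members, Acss2 correlated at 0.91 with Acsl3, Acsl1 at 0.55, Acsl5 and Acsl4 at 0.44 each and Gpam at -0.21.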

How the data were processed

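RNA-seq values came from a table the authors deposited for 3 wild type and 3 labelled knockout libraries. Per the submitters' processing notes, the build was mm9 and the tools, in unstated roles, were edgeR, HTSeq, STAR 2.4.2a and CASAVA; annotation and strand setting: not given in the sources used here. The deposited values are called FPKM but are a signal on the scale of CPM: within each library 100% were whole multiples of 1 step (tolerance 0.01 reads), so whole reads were recovered and no length had been divided out.

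The 10533 genes averaging 1 or more were analysed as log2(value + 1) with limma 3.58.1 in R 4.3.3 (trended prior variance, two-sided, Benjamini-Hochberg over all tested genes, threshold 0.05), without and with the replicate number as a block. The fit without the block was the planned main one, and the block was an alternative. Acsl3 and Gpat3 passed limma only in the fit with the block. The labels do not state that equal numbers share a source; every same-number correlation of deviations from the group means was over 0.1 (0.73, 0.73 and 0.84), which was taken as pairing. If the libraries do not come from separate tumours, p-values measure only the spread between these samples. Count tests on recovered reads used edgeR 4.0.16 (quasi-likelihood) and DESeq2 1.42.0. Exact permutation tests were two-sided. Any 2 libraries differed beyond counting error (chi-square per degree of freedom at least 49.5). The limma and edgeR steps were tested on simulated data. Plots used matplotlib 3.10.9.

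Members and lists were chosen with earlier results of these data known. Named genes are the 10 members, called genes and the 2 most abundant genes of each related list, the 2 most abundant markers of each cell type, and the 3 genes closest to the member with the smallest paired p; others are said to be outside the rule. Of 136 list entries, 1 matched no gene. The remaining marker lists gave, at their most, summed levels of 114.9 for T cells, 5.06 for NK cells, 1.50 for erythroid cells and 101.7 for stroma. Single markers peaked at Lck 78.0, Cd2 61.9, Klrb1c 4.42, Gzma 1.91, Hbb-b1 1.10, Klf1 0.565, Pecam1 100.9 and Col1a2 1.33. These peaks are not all in the library with the highest sum. In liver cells Apoa1 and Fga reached 0.134 and 0.133. The highest T cell sum came mainly from Lck and Cd2. Every other matched T cell marker was highest in labelled knockout replicate 2, led by Cd8a (5.14), Cd8b1 (3.11) and Cd3g (2.68), where Cd2 was at 1.41. Among B cell and myeloid markers, Cd79b reached 518.6, Lyz2 1471 and Mpeg1 165.4. Some genes that the naming rule selects are not reported here.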

Additional observations from a re-analysis of the deposited data

How the results depend on the processing

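The unpaired count of 1 called gene was 92 with the replicate block, 39 and 738 by edgeR and DESeq2 with the block, 110 by DESeq2 and 0 by edgeR without it, 2 with a minimum mean of 5, and 0 with a pseudocount of 0.1 or 5, without a filter, under quantile normalization or without labelled knockout replicates 2 and 3. With 1 library or 1 pair left out it was 0 to 840, the highest in the block fit without pair 1. Called members were 0, but 1 with the block and by DESeq2 with the block, and 0 to 1 with a library or pair left out. The count for the other glycerolipid genes was 0, but 1 with the block, 7 by DESeq2 with the block and 0 to 11 with a library or pair left out. Acsl3 (-0.80 to -0.37), Acss2 (-0.97 to -0.18), Agpat2 (-0.51 to -0.04) and Gpat3 (0.36 to 0.64) kept their sign in every alternative run. Acss2, Lpin1 and Dgat2 had means under 5 and gave no value under the stricter filter.

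Signs turned for several genes, some with changes near 0 and some, such as Soat1 and Plin2, with large ones. Acsl1 was at 0.046 with equal totals, 0.023 under quantile normalization, 0.022 and 0.016 by edgeR and 0.021 and 0.015 by DESeq2 without and with the block. With equal totals Acsl4 was at 0.017 and Acss1 at 0.021, and under quantile normalization Lpin1 was at -0.015 and Dgat2 at -0.073. With a library or pair left out the changes ran from -0.16 to 0.15 (Acsl1), -0.11 to 0.031 (Acsl4), -0.016 to 0.086 (Acsl5), -0.035 to 0.37 (Gpam), -0.39 to 0.61 (Lpin1), -0.27 to 0.14 (Dgat1), -0.25 to 0.14 (Acss1), -0.19 to 0.31 (Acsf2), -0.065 to 0.33 (Cds2) and -0.0075 to 0.36 (Scap). Without labelled knockout replicates 2 and 3, a fit that assumes the lone library to vary like the others and ignores the pairs, Acsl5 was at -0.090, Lpin1 at -0.52, Dgat2 at -0.14, Acsf2 at -0.15, Cds2 at -0.26, Plin2 at -0.63, Scap at -0.24, Soat1 at -0.49, Mgll at -0.88 and Rxra at -0.048. The cause of these changes was not tested.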
